A study of Homo sapiens with 21 samples.

Results

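The genes of cholesterol and fatty acid synthesis were followed across 17 human cancer cell lines, 7 parental lines and 10 lines derived from them that had become resistant to a drug. The members are 33 named genes, of which 32 could be matched to the 53515 genes of the deposited count files: 18 sterol enzymes, 6 regulators of sterol synthesis, 6 fatty acid enzymes and 2 sterol exporters. They were chosen by name, with earlier results of these data known. ACACA, which encodes the first committed enzyme of fatty acid synthesis, could not be matched by its gene identifier and was not analysed here. RNA was sequenced in 21 libraries, and each resistant line was compared with its own parent, to ask how the expression of these genes differed after resistance had been acquired under months of rising drug dose.

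HepG2, from a liver tumour, gave the sorafenib-resistant lines HepG2S1 and HepG2S3. PancVB, a pancreatic line that the labels give as derived and drug-sensitive, gave the 5-fluorouracil-resistant lines PancB1Q and PancB1V. The lung line HCC4006 entered with separate parental samples: HCC4006P1, the parent of the erlotinib-resistant HCC4006ER, and HCC4006P2, the parent of the gefitinib-resistant HCC4006GR. HCC827P, also from lung, gave the gefitinib-resistant HCC827GR. Of the ovarian lines, UWB1289 gave U10 and U100 under olaparib, and IGROV-1/CDDP is the cisplatin-resistant form of IGROV-1. All HepG2 lines were grown in William's E medium and all other lines in an RPMI medium, all with fetal bovine serum. Medium and tissue therefore cannot be told apart between HepG2 and the other parents, while each resistant line shared the medium of its parent. The labels name no drug exposure at harvest, and the study's text describes the HepG2-derived lines as differing from HepG2 in their genome as well. There were 2 libraries of HepG2, of HepG2S3, of HCC4006P1 and of HCC4006ER, and 1 library of each of the other 13 lines. No label says that replicate libraries came from separate cultures. The p-values of pairs with 2 libraries on each side, and of their difference, therefore measure the spread between libraries, which may be technical. Those of the test over 7 parents measure the spread between parental cell lines. HCC4006P1 and HCC4006P2, stocks of a single named line, count there as 2 of the 7, as if they were independent. In such bulk RNA, fewer cells of a kind and less RNA per cell cannot be told apart.

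Cells make cholesterol from acetyl-CoA through mevalonate, the isoprenoid diphosphates, squalene and a series of sterol intermediates. The transcription factors encoded by SREBF1 and SREBF2 (the SREBPs) switch on these enzymes and those of fatty acid synthesis when sterol in the endoplasmic reticulum is low: SCAP escorts the SREBPs to the Golgi for cleavage, and the INSIG proteins hold SCAP back when sterol is plentiful. ABCA1 and ABCG1 work in the other direction, exporting cholesterol from the cell, and are switched on by the oxysterol-sensing LXR receptors.

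The promoters of the genes on which the results turn are shown because SREBP target genes usually pair a sterol regulatory element with a CCAAT box, the site of the factor NF-Y. The sequences are the 250 bases before the annotated RefSeq start on the gene's own strand, from GRCh38.p14, with capitals marking TCACNCCAC (the core of the sterol regulatory element), CCAAT and CACGTG (an E-box, which SREBPs and other factors can bind), on either strand. SREBF2 lies at chr22:41832855-41833104, INSIG1 at chr7:155297628-155297877, MSMO1 at chr4:165327419-165327668 and SCD at chr10:100346983-100347232, all on the plus strand.
SREBF2: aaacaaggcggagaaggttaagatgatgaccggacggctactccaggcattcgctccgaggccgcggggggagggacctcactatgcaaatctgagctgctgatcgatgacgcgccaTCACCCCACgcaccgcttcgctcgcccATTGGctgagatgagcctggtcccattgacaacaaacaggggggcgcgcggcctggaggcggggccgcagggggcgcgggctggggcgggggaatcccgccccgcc
INSIG1: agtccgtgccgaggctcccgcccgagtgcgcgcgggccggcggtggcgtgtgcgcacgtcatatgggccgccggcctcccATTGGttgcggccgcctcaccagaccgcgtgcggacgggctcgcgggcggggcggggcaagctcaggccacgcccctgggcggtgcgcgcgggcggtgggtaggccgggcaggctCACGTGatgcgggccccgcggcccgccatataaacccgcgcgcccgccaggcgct
MSMO1: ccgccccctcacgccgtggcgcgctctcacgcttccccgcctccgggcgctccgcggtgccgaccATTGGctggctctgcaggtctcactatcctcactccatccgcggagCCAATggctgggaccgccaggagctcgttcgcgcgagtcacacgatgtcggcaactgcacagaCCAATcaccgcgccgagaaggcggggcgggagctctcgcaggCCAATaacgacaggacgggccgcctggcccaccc
SCD: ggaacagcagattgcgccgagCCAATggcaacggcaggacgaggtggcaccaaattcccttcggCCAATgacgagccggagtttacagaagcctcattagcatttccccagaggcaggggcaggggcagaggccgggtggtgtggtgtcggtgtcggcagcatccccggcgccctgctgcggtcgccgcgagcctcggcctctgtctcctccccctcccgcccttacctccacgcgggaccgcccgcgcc
RefSeq promoters, taken from 250 bases before to 50 bases after the start, were held for 27 of the 32 members. CCAAT stood in 17 of these 27, against 35.7% of all 27305 promoters. By role it stood in 12 of 15 promoters of sterol enzymes, 3 of 6 of regulators, 2 of 5 of fatty acid enzymes and 0 of 1 of exporters. At least 2 CCAAT matches stood in 12 members, against 11.3% of all promoters. CACGTG stood in 5 members (LSS, SC5D, SCAP, INSIG1 and ABCA1; 7.43% of all promoters), and the exact sequence TCACNCCAC in SREBF2 alone (1.15% of all promoters). Matches of different motifs were counted separately even where they overlap. A match describes the letters of this window and does not show that a factor binds there.

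Counts on genes ranged from 9851195 to 36639473 a library. Levels are given as CPM, counts per 1000000 counts on genes with a known position outside a stretch that held no counts in HCC4006P1 replicate 1: chromosome 7 past the gene that starts at 30555925 (GRCh37) and chromosomes 8, 9, X, Y and M. Of 1679 genes in that stretch with at least 50 counts in HCC4006P1 replicate 2, 0 had a count in replicate 1. This affects 7 members, FDFT1, SQLE, CYP51A1, NSDHL, EBP, INSIG1 and ABCA1, whose level in HCC4006P1 is that of replicate 2 alone. All 32 members averaged at least 1 CPM over the 17 lines, as did 16000 genes (29.9% of all). Cell type markers moved with several comparisons: the 8 hepatocyte markers summed to 31860 CPM in HepG2 but to 1.94 in HepG2S1 and 32.1 in HepG2S3 (ALB 14980, 0 and 11.3 CPM; HNF4A 269, 1.03 and 0.53 CPM). The 4 lung epithelial markers summed to 330 CPM in HCC4006P2 and 26.3 in HCC4006GR but to 0.46 in HCC4006P1 and 0.70 in HCC4006ER, in which the defining marker NKX2-1 was at 0.08 and 0 CPM. PAX8 was at 469 to 891 CPM in the 5 ovarian lines and at 1.19 to 49.3 CPM elsewhere. The 4 ovarian carcinoma markers together, PAX8 included, summed to between 587 CPM (U10) and 1502 CPM (IGROV-1) in the ovarian lines. They also reached 913 CPM in the lung line HCC827P and 405 CPM in HCC827GR, and at most 143 CPM (PancVB) in the other lines. HCC827GR held 1006 CPM of hepatocyte markers, of which 3 of 8 reached 1 CPM, against 83.5 in HCC827P.

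Among the parental lines, the synthesis genes were highest in HCC4006P1 and HepG2. HCC4006P1 held the highest parental level of 16 members and HepG2 of 10, while PancVB held the lowest level of 9. SCD, the desaturase that makes oleate, stood at 2750 and 2607 CPM in the HCC4006P1 libraries and at 2570 and 1612 CPM in HepG2. In the other parents SCD ran from 281 CPM in PancVB to 709 CPM in HCC827P, below all 4 of these libraries. FASN, the fatty acid synthase, had 1400 and 1498 CPM in HCC4006P1, 1007 and 893 CPM in HepG2 and 255 CPM in IGROV-1. For HMGCS1, which makes HMG-CoA, HCC4006P1 had 654 and 576 CPM and PancVB 67.7 CPM. The spread over all 17 lines was 8.69-fold for the median member and over 10-fold for 13 members. It was narrowest for NSDHL, a sterol C4 decarboxylating enzyme (38.7 to 67.2 CPM, 1.74-fold).

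The parental stocks HCC4006P1 and HCC4006P2, which share the name of a single line, differed across the pathway. Of 32 members, 27 were higher in HCC4006P1, 17 (53.1%) by 2-fold or more on the log2(CPM + 1) scale, and 0 were 2-fold lower, against 5.59% of all 16000 genes higher and 13.1% lower. INSIG1 was 346.9 CPM in the HCC4006P1 library that covers it and 44.3 CPM in HCC4006P2, a log2 difference of 2.94. SCD differed by 2.25, HMGCS1 by 2.16 and FASN by 2.07. HCC4006P2 was sequenced in 1 library, so these differences have no replicate check. The pair also differed in NKX2-1 (0.08 CPM in HCC4006P1 and 140 CPM in HCC4006P2), and the part of this in the members' differences was not tested.

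**Figure D1:**
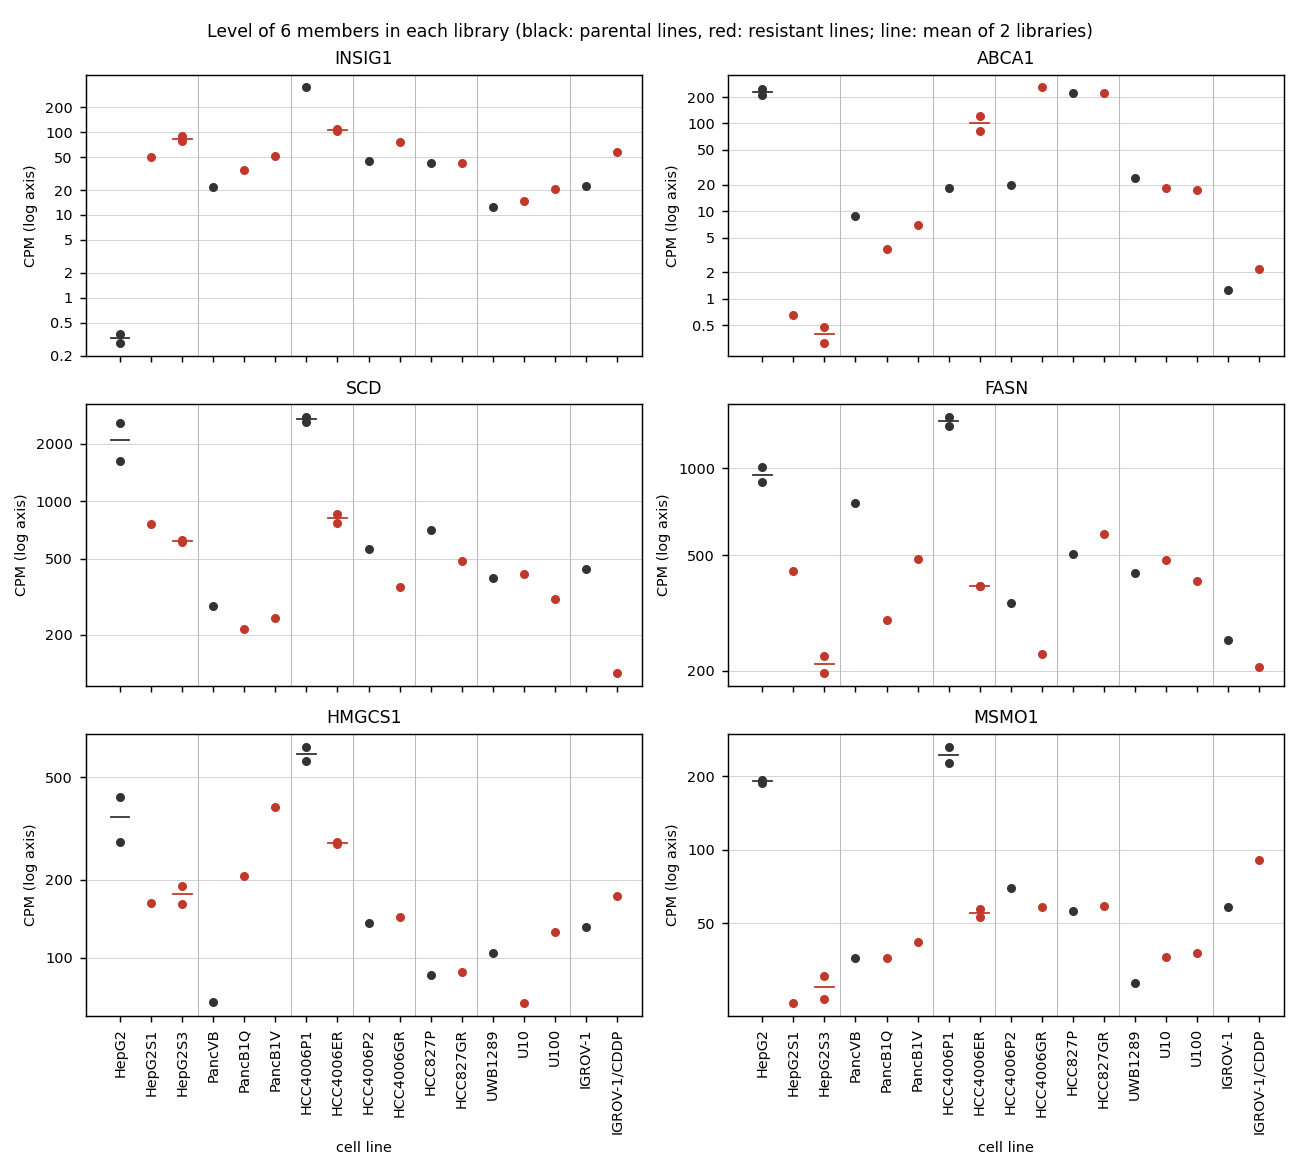
Levels of INSIG1, ABCA1, SCD, FASN, HMGCS1 and MSMO1 (CPM, log axis) in each library of the 17 cell lines, parental lines in black and resistant lines in red, each parent followed by its resistant lines, with the mean as a line where there are 2 libraries. INSIG1 sits at 0.37 and 0.28 CPM in HepG2 and at 12.4 CPM or more in every other line shown, and SCD in HepG2 and HCC4006P1 lies above that of every other line.

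In the sorafenib-resistant HepG2S3, most of the pathway was lower than in HepG2. By edgeR's quasi-likelihood test with Benjamini-Hochberg adjustment over 16929 genes, 18 of 32 members (56.2%) were lower and 3 (9.38%) were higher, against 32.1% and 31.4% of all genes tested. The members' median log2 change was -0.97 and that of all genes -0.01. All 32 members passed the filter on low counts. The hepatocyte markers fell in the same comparison (8 of 8 lower, median log2 change -10.4). The 8 proliferation genes summed to 849 CPM in HepG2 and 3513 CPM in HepG2S3. All 8 were above 0 on the log2(CPM + 1) scale, 6 by 2-fold or more, and 3 passed edgeR's test as higher. The part of both lists in the members' changes was not tested. HepG2 replicate 1 was above replicate 2 for 27 of 32 members, by 1.28-fold for the median member in either direction and by at most 3.40-fold, for FADS2. Without HepG2 replicate 1 there were 7 members called higher and 20 lower, and without HepG2 replicate 2 there were 3 and 26. Leaving out HepG2S3 replicate 1 or 2 gave 3 higher in each case, and 13 or 14 lower.

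The regulators INSIG1 and INSIG2, which hold the SREBP escort SCAP in the endoplasmic reticulum, moved in opposite directions. INSIG1 (chr7:155089486-155101945, GRCh37, plus strand) had 11 and 8 counts in HepG2, 0.37 and 0.28 CPM, and 1977 and 2243 counts in HepG2S3, 77.0 and 89.7 CPM. The groups did not overlap, in a comparison that called 31.4% of all genes higher, and the share of all genes separated in this way was not counted. HepG2 was the only line of the 17 with INSIG1 under 12.4 CPM. INSIG1 rose by 7.66 on the log2 scale (SE 0.25, adjusted p = 3.82e-05, edgeR). INSIG2 went from 132 and 119 CPM in HepG2 to 23.4 and 21.9 CPM in HepG2S3 and fell by 2.79 on the log2 scale (SE 0.14, adjusted p = 9.76e-05). HepG2S1, in 1 library, had 50.2 CPM of INSIG1 and 16.6 CPM of INSIG2.
The SREBP genes themselves fell, SREBF2 from 303 and 377 CPM to 145 and 165 CPM (log2 change -1.45, SE 0.16) and SREBF1 from 124 CPM in both libraries to 65.3 and 68.6 CPM (log2 change -1.21, SE 0.12). STARD4, a carrier of cholesterol between membranes, had a log2 change of -0.62 (SE 0.18, adjusted p = 0.0269), which no longer passed when either HepG2S3 library was left out. SCAP had 96.5 and 79.3 CPM against 89.6 and 83.9 CPM and did not pass (adjusted p = 0.108).

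Of the 18 sterol enzymes, 9 fell in HepG2S3, 2 rose and 7 did not pass the test. The 3 largest falls were in the later steps. TM7SF2, a sterol reductase, went from 48.6 and 38.0 CPM to 0.90 and 1.48 CPM (log2 change -5.51, SE 0.32, adjusted p = 0.000134). SQLE, squalene epoxidase, went from 318 and 238 CPM to 26.1 and 32.7 CPM (log2 change -3.56, SE 0.23, adjusted p = 0.000185). MSMO1, the sterol C4 methyl oxidase, went from 193 and 188 CPM to 24.5 and 30.3 CPM (log2 change -3.12, SE 0.17, adjusted p = 0.000109). In each of these 3 genes every HepG2S3 library lay below every HepG2 library, in a comparison that called 32.1% of all genes lower. The share of all genes separated in this way was not counted. TM7SF2 overlaps VPS51 on the same strand, where reads can be hard to assign.
DHCR7, which carries out a last reduction to cholesterol, fell by 1.78 on the log2 scale, MVD, the mevalonate diphosphate decarboxylase, by 1.59, FDFT1, squalene synthase, by 1.41, HMGCS1 by 1.31 and SC5D by 0.99. FDFT1 no longer passed without HepG2S3 replicate 1. IDI1, an isoprenoid isomerase, lay at the threshold (log2 change -0.50, adjusted p = 0.04996) and no longer passed with DESeq2. PMVK, the phosphomevalonate kinase, rose from 12.9 and 12.8 CPM to 58.0 and 57.2 CPM (log2 change 1.85, SE 0.14, adjusted p = 0.000336). EBP, a sterol isomerase, rose from 63.8 and 40.2 CPM to 138 and 148 CPM (log2 change 1.13, SE 0.25, adjusted p = 0.0112). The 7 that did not pass were ACAT2, MVK, FDPS, LSS, CYP51A1, NSDHL and HSD17B7, with log2 changes from -1.12 to 0.37. The HepG2 libraries themselves were 185 and 66.3 CPM apart for ACAT2 and 86.3 and 34.7 CPM for FDPS.

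Of the 6 fatty acid enzymes, 3 fell in HepG2S3 and 3 did not pass. FASN went from 1007 and 893 CPM to 197 and 225 CPM (log2 change -2.49, SE 0.16, adjusted p = 0.000186), and SCD from 2570 and 1612 CPM to 630 and 610 CPM (log2 change -2.08, SE 0.27, adjusted p = 0.0017). ACLY, which supplies acetyl-CoA from citrate, was near the threshold (log2 change -0.46, adjusted p = 0.0475) and did not pass with DESeq2. ELOVL6, FADS1 and FADS2, an elongase and the desaturases of polyunsaturated fatty acids, had log2 changes of 0.16, 0.06 and -0.95. FADS2 was 117 CPM in HepG2 replicate 1 and 34.5 in replicate 2, so its change turned from -1.60 without replicate 2 to 0.21 without replicate 1.
The exporter ABCA1 (chr9:107543287-107690436, GRCh37, minus strand) showed the largest fall of any member, from 6354 and 6954 counts (213 and 247 CPM) in HepG2 to 8 and 12 counts (0.31 and 0.48 CPM) in HepG2S3. Its log2 change was -9.49 (SE 0.25, adjusted p = 2.74e-05). ABCG1 was low throughout, at 15 and 18 counts in HepG2 and 3 and 8 counts in HepG2S3 (log2 change -1.69, adjusted p = 0.0358), and did not pass with DESeq2.

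HepG2S1, resistant to the same drug and compared with the same HepG2 libraries, had 1 library, so its values carry no test. On the log2(CPM + 1) scale, 12 of 32 members were 2-fold or more lower and 3 higher, against 15% and 24.2% of all 16000 genes. The 3 higher members were INSIG1 (5.27), PMVK (1.81) and EBP (1.70). ABCA1 had 5 counts in HepG2S1 (0.65 CPM, change -7.13), TM7SF2 17 counts (-3.79), MSMO1 23.7 CPM (-2.96) and SQLE 60.4 CPM (-2.18). On the same scale HepG2S3 changed by 5.99 in INSIG1, 2.08 in PMVK, 1.44 in EBP, -7.37 in ABCA1, -4.34 in TM7SF2, -2.75 in MSMO1 and -3.20 in SQLE. FASN was 442 CPM in HepG2S1 (-1.10), between HepG2 and HepG2S3 (-2.17), and the difference between the resistant lines was not tested. The median of all genes changed by 0.23 in HepG2S1 and 0.20 in HepG2S3 on this scale and by -0.04 and 0 after TMM scaling.

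In the erlotinib-resistant HCC4006ER most of the pathway was lower than in its parent. Of the 25 members outside the stretch without counts, 19 (76%) were lower than in HCC4006P1 and 2 (8%) higher, against 24.9% and 24.1% of 12791 genes tested by edgeR. The median log2 change of the 25 was -0.99 and that of all genes 0.01. All 6 fatty acid enzymes, 9 of 13 sterol enzymes and 4 of 5 regulators fell. The 2 called higher became 0 without HCC4006ER replicate 1 and 1 without HCC4006ER replicate 2. In this comparison 3 of 8 proliferation genes and all 3 of the epithelial keratin and SOX9 markers tested (from the pancreatic duct list) fell as well, and their part in the members' changes was not tested.

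Among the fatty acid enzymes FASN (chr17:80036214-80056170, GRCh37, minus strand) went from 1400 and 1498 CPM to 393 CPM in both HCC4006ER libraries (log2 change -1.97, SE 0.12, adjusted p = 6.04e-05). ELOVL6, which lengthens palmitate, went from 160 and 155 CPM to 42.5 and 48.4 CPM (log2 change -1.88, SE 0.13), and SCD from 2750 and 2607 CPM to 857 and 767 CPM (log2 change -1.80, SE 0.12). In all 3 genes the HCC4006ER libraries lay below both HCC4006P1 libraries by more than 2-fold, in a comparison that called 24.9% of genes tested lower. The share of all genes separated to this extent was not counted. FADS2, ACLY and FADS1 fell by 1.15, 1.10 and 1.02 on the log2 scale. FADS1 and FADS2 overlap each other on opposite strands, and FEN1 overlaps FADS2, so their counts are uncertain where strand was not used.

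Of the sterol enzymes, MSMO1 fell from 264 and 226 CPM to 57.0 and 53.2 CPM (log2 change -2.23, SE 0.13, adjusted p = 4.18e-05) and IDI1 from 167 and 155 CPM to 42.3 and 37.6 CPM (log2 change -2.09, SE 0.13, adjusted p = 5.11e-05). HMGCS1 fell by 1.23, MVD by 1.04, FDPS, the farnesyl diphosphate synthase, by 0.99, and MVK, the mevalonate kinase, by 0.94 on the log2 scale. HSD17B7, DHCR7 and SC5D, all of the last sterol steps, fell by 0.85, 0.80 and 0.76. HSD17B7 no longer passed without either HCC4006ER library, nor SC5D without HCC4006ER replicate 2. The 3 that did not pass were ACAT2, PMVK and LSS. TM7SF2 rose from 47.8 and 29.6 CPM to 66.8 and 61.4 CPM (log2 change 0.65, SE 0.21, adjusted p = 0.0413), and the call was lost when either HCC4006ER library was left out.
SREBF1 fell from 258 and 262 CPM to 90.2 and 78.4 CPM (log2 change -1.71, SE 0.13, adjusted p = 0.00012). STARD4, SREBF2 and INSIG2 fell by 1.06, 0.77 and 0.74 on the log2 scale, and INSIG2 no longer passed without HCC4006ER replicate 2. SCAP went the other way, from 21.4 and 27.7 CPM to 46.7 and 42.9 CPM (log2 change 0.78, SE 0.18, adjusted p = 0.0126), and no longer passed without HCC4006ER replicate 1. With the counts of HCC4006P1 replicate 1 used as deposited and every gene tested, MVK, TM7SF2, SCAP and INSIG2 did not pass.

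For the 7 members in the stretch, HCC4006P1 has 1 library, and the fit without its replicate 1 takes its spread from the HCC4006ER pair, so only values are given. INSIG1 was 347 CPM in HCC4006P1 replicate 2 and 108 and 104 CPM in HCC4006ER (log2 change -1.87, SE 0.11). ABCA1 was 18.6 CPM and then 122 and 82.1 CPM (log2 change 2.29, SE 0.14). FDFT1, CYP51A1 and EBP had log2 changes of -1.14, -1.14 and -1.11, and SQLE and NSDHL of -0.25 and -0.16. CYP51A1 was at 0.79 to 8.15 CPM in every line and overlaps AKAP9, so its values are uncertain.

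**Figure D2:**
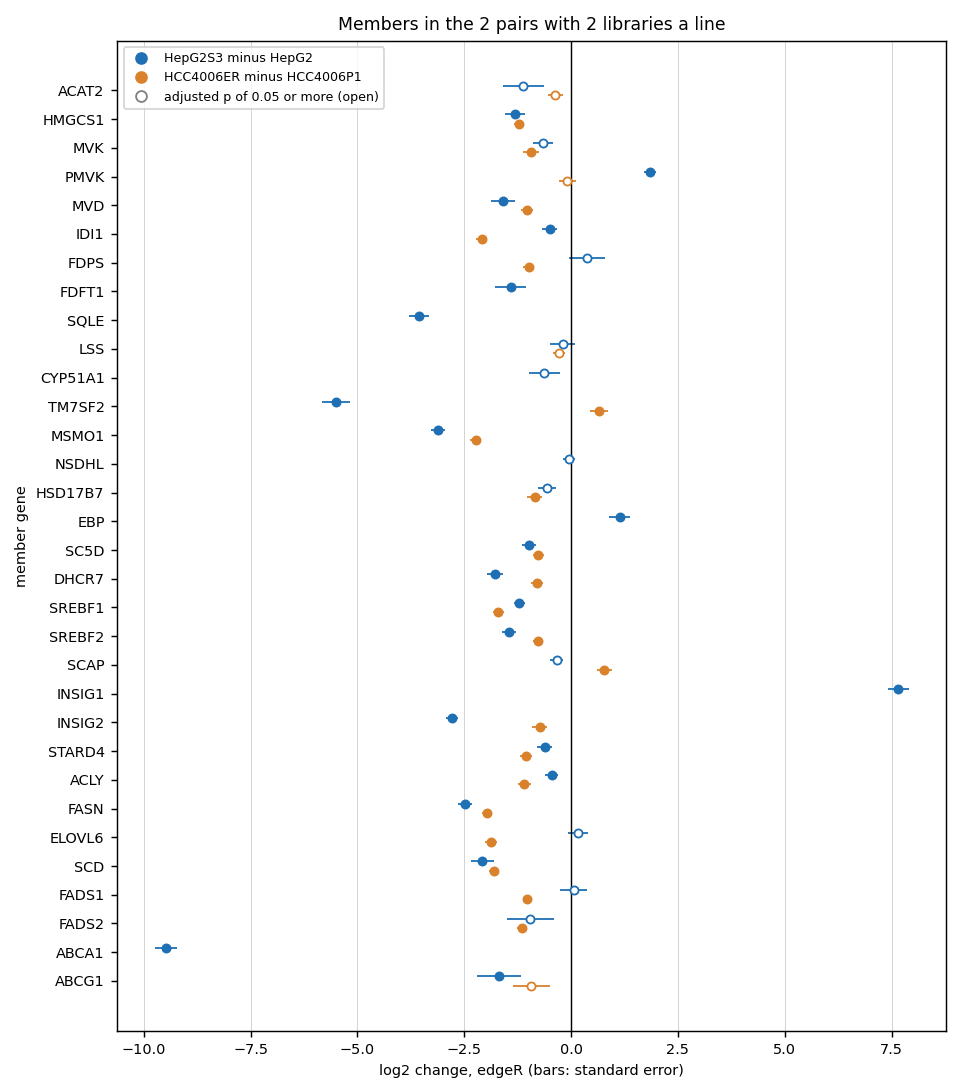
The log2 change of each member by edgeR (x axis) in HepG2S3 against HepG2 (blue) and in HCC4006ER against HCC4006P1 (orange), with standard errors as bars, filled where the adjusted p is under 0.05. Most members lie left of 0 in both, INSIG1 at 7.66 and ABCA1 at -9.49 stand at the ends of the HepG2S3 range, and 7 members have no orange point because HCC4006P1 replicate 1 held no counts for them.

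The HepG2S3 and HCC4006ER comparisons share no library. Of the 25 members tested in both, 13 (52%) were lower in both, against 8.35% of 11777 genes, namely HMGCS1, MVD, IDI1, MSMO1, SC5D, DHCR7, SREBF1, SREBF2, INSIG2, STARD4, ACLY, FASN and SCD. Of the same 25, 0 were higher in both (7.37% of all genes) and 1, TM7SF2, was called in opposite directions (16.4%). The difference between the changes was tested directly by an interaction term. It was higher in HCC4006ER for 6 members (24%) and lower for 7 (28%), against 27.7% and 28.2% of 14478 genes, shares close to the background. These counts ranged from 5 to 10 and from 3 to 10 as each of the 8 libraries was left out in turn, with 10 higher without HepG2 replicate 2, and 3 lower without either HepG2S3 library, either HCC4006ER library or HCC4006P1 replicate 2. The largest differences were in TM7SF2 (6.13, SE 0.39, adjusted p = 3.3e-06), ELOVL6 (-2.07, SE 0.28, adjusted p = 0.00028), INSIG2 (2.02, SE 0.22, adjusted p = 7.9e-05) and PMVK (-1.97, SE 0.26, adjusted p = 0.000228). For SCD the difference was 0.24 (SE 0.29, adjusted p = 0.518), for FASN 0.50 (SE 0.20, adjusted p = 0.0633) and for HMGCS1 0.06 (SE 0.27, adjusted p = 0.897), and these did not pass.

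In the 5-fluorouracil-resistant pancreatic lines, HMGCS1 and ACAT2, which catalyse the first steps towards mevalonate, were higher and the fatty acid enzymes lower than in PancVB. Each line had 1 library, both are compared with the same PancVB library, and intervals are 95% counting intervals on the log2(CPM + 1) scale that cover counting error only. HMGCS1 was 67.7 CPM in PancVB, 208 CPM in PancB1Q and 384 CPM in PancB1V, changes of 1.60 (1.51 to 1.69) and 2.49 (2.40 to 2.57). ACAT2, which condenses acetyl-CoA, was 27.6, 61.4 and 58.6 CPM, changes of 1.12 and 1.06. ACAT2 overlaps TCP1 and SOD2 on the other strand. STARD4 was 6.89 CPM in PancVB, 11.2 in PancB1Q and 23.0 in PancB1V, and INSIG1 22.1, 34.6 and 50.9 CPM. PMVK ran the other way, from 25.2 CPM to 8.87 and 7.03 CPM (changes of -1.41 and -1.71), as did EBP, from 68.4 CPM to 32.2 and 29.2 CPM (-1.07 and -1.20).
All 6 fatty acid enzymes were lower in both lines. Their median change was -0.91 in PancB1Q and -0.76 in PancB1V, with all-gene medians of -0.07 and 0.01, while the sterol enzymes had medians of -0.12 and 0.19. FADS2 was 125 CPM in PancVB against 43.2 and 67.3 CPM, ELOVL6 39.8 against 17.9 and 15.9 CPM, and FASN 758 against 300 and 488 CPM. Counting members 2-fold or more apart gave 2 higher and 8 lower in PancB1Q, against 5.94% and 8.19% of all genes, and 4 higher and 4 lower in PancB1V, against 8.37% and 6.38%. With TMM-scaled library sizes the 8 became 4. The pancreatic duct markers, of which 3 of 4 reached 1 CPM in each of these lines, summed to 4103 CPM in PancVB, 1694 in PancB1Q and 1414 in PancB1V. Of the 3 duct markers averaging at least 1 CPM, 1 was 2-fold or more higher and 2 lower in each resistant line. The proliferation genes summed to 3225, 4752 and 3494 CPM in the same order. The part of both lists in the members' changes was not tested.

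In the gefitinib-resistant HCC4006GR both exporters were higher than in HCC4006P2. ABCA1 was 258 CPM against 20.0 CPM in HCC4006P2 (change 3.63, 3.44 to 3.81) and ABCG1 3.83 against 1.10 CPM (interval of the change 0.63 to 1.70). TM7SF2 was 11.3 against 33.6 CPM (-1.49) and FADS2 115 against 232 CPM (-1.01). These were the 2 members 2-fold or more higher and the 2 lower, against 7.12% and 7.16% of all genes. Of the 18 sterol enzymes 15 were below 0, with a median change of -0.44 and an all-gene median of -0.07.
In HCC827GR, 1 member was 2-fold or more higher, TM7SF2 at 10.3 against 4.56 CPM (1.02), and 1 lower, ELOVL6 at 75.3 against 224 CPM (-1.56), against 9.61% and 7.04% of all genes. ACLY was 412 against 808 CPM (-0.97). ABCA1 was 224 CPM in HCC827P and in HCC827GR alike. Summed proliferation genes were lower in both resistant lines (583 against 2247 CPM in HCC4006GR and 1421 against 4671 CPM in HCC827GR). Summed lung epithelial markers were lower as well, 26.3 against 330 CPM in HCC4006GR and 38.5 against 125 CPM in HCC827GR. Of the 3 lung markers averaging at least 1 CPM, 3 were 2-fold or more lower in HCC4006GR. In HCC827GR 2 were, and 1 was above 0. The part of both lists in these changes was not tested.

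The olaparib-resistant ovarian lines U10 and U100 had 3 and 2 members 2-fold or more above UWB1289 and 0 below, against 5.84% and 6.17% of all genes higher and 5.14% and 1.77% lower. FADS2 was 22.02 CPM in UWB1289, 74.7 CPM in U10 (1.72, 1.49 to 1.94) and 46.5 CPM in U100 (1.04, 0.81 to 1.28). ELOVL6 was 17.1 CPM in UWB1289, 56.6 CPM in U10 (1.67) and 21.9 CPM in U100 (0.35). The other 2 were CYP51A1 in U10 (3.04 against 0.79 CPM) and ABCG1 in U100 (9.07 against 2.71 CPM). DHCR7 was 74.5, 140 and 124 CPM in UWB1289, U10 and U100. Summed proliferation genes were 3572, 2216 and 2012 CPM in the same order, and their part in these changes was not tested.
In the cisplatin-resistant IGROV-1/CDDP 5 of 6 fatty acid enzymes were lower, while 11 of 18 sterol enzymes were higher. FADS2 was 11.1 against 47.3 CPM in IGROV-1 (-2.00, -2.20 to -1.80), SCD 126 against 443 CPM (-1.80, -1.87 to -1.74) and ELOVL6 25.2 against 75.6 CPM (-1.55). ACLY was 714 against 413 CPM (0.79). FADS2, SCD and ELOVL6 were the 3 members 2-fold or more lower, and INSIG1, at 57.7 against 22.1 CPM (1.35), was the 1 higher, against 6.78% and 4.96% of all genes. The median change was -0.95 for the fatty acid enzymes, 0.21 for the sterol enzymes and -0.04 for all genes. EBP stood at only 2.69 CPM in the cisplatin-sensitive parent and 1.27 CPM in the resistant line, against 28.2 CPM or more in every other line.

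**Figure D3:**
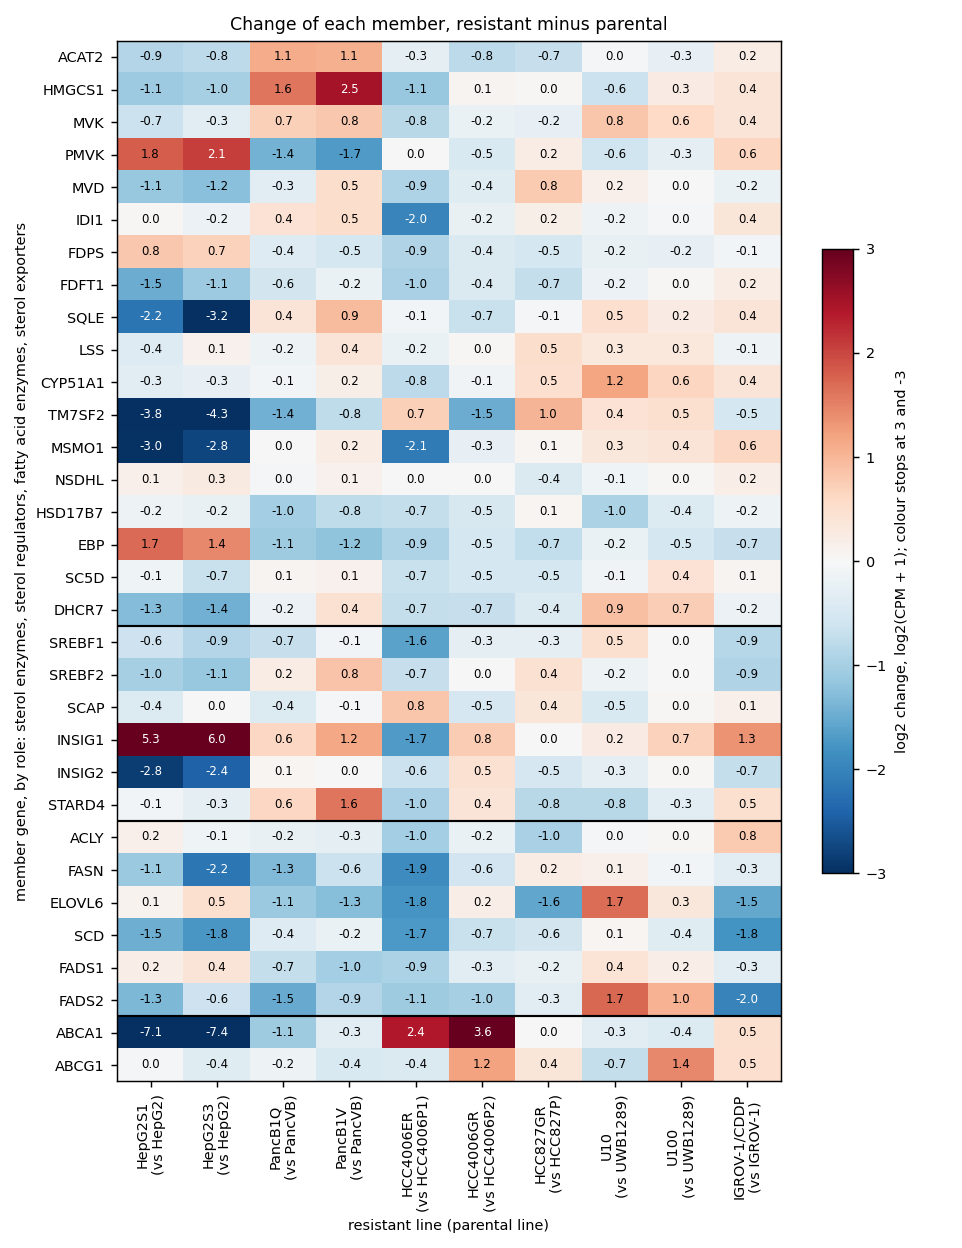
Change of each of 32 members (rows, grouped by role) in each of the 10 resistant lines against its parent (columns), as the difference of log2(CPM + 1), red where higher in the resistant line and blue where lower, with colour stopping at 3 and -3. INSIG1 in HepG2S1 and HepG2S3 (5.27 and 5.99) and ABCA1 in the same lines (-7.13 and -7.37) exceed the colour range, and the SCD row is below 0 in 9 of 10 columns.

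Across all 10 resistant lines, the members that most often lay on the same side were SCD and HSD17B7, below 0 in 9 of 10, and INSIG1, above 0 in 9 of 10, or in 8 of 10 with TMM-scaled library sizes, where HCC827GR turned from 0.01 to -0.03. The exception for SCD was U10 (0.06), for HSD17B7 HCC827GR (0.06) and for INSIG1 HCC4006ER (-1.70). FASN and FADS2 lay below 0 in 8 of 10 under every denominator tried, and FDPS, FDFT1, EBP and SREBF1 in 7 to 9. The share of all genes with such counts was not computed, and resistant lines of the same parent share its libraries. With the resistant lines of each parent summed, so that 7 parents stood against 7 resistant counterparts, edgeR called 0 of 32 members and 0% of 15847 genes. At an unadjusted p under 0.05 there were 4 members (12.5%), all lower, and 722 genes (4.56%), and DESeq2 called 81 genes higher and 21 lower, among them 0 members. The 4 were SCD (log2 change -1.03, SE 0.29, adjusted p = 0.984), SREBF1 (-0.62), FDFT1 (-0.55) and FASN (-0.82). The members' median change in this test was -0.31, the fatty acid enzymes' -0.75 and that of all genes 0.01, with 26 of 32 members and 6 of 6 fatty acid enzymes below 0.

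**Figure D4:**
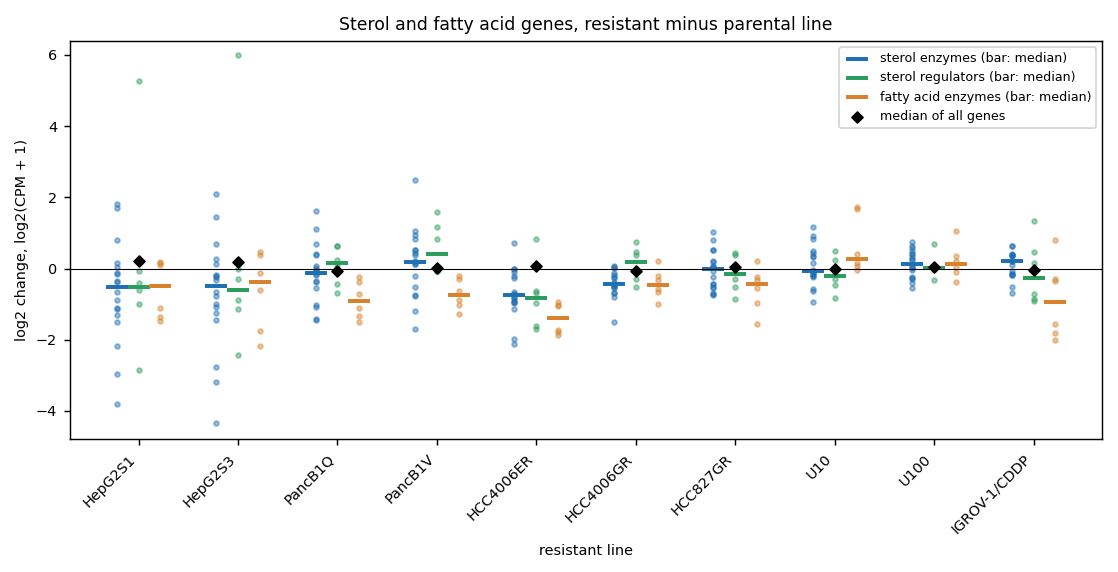
Changes of log2(CPM + 1) in each resistant line against its parent for the sterol enzymes (blue), sterol regulators (green) and fatty acid enzymes (orange), one point a gene with the median as a bar, and the median of all genes as a black diamond. The fatty acid median lies below the all-gene median in 8 lines, down to -1.39 in HCC4006ER, and above it in U10 and U100.

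Of 30 other genes of lipid metabolism listed beside the members, 29 averaged at least 1 CPM. In HepG2S3 7 of these 29 rose and 11 fell by edgeR, with a median log2 change of -0.25, and in HCC4006ER 6 of 25 rose and 9 fell, with a median of -0.19. The 4 that changed most over the 10 pairs were ME1, ACSL1, ELOVL7 and FADS3. ME1, a malic enzyme that supplies NADPH, was 0.12 CPM in HepG2 and 85.1 and 75.4 CPM in HepG2S1 and HepG2S3, and at 34.0 CPM or more in all other lines. INSIG1 and ME1 were thus both under 1 CPM in HepG2 and in no other line. ACSL1, which activates fatty acids, was 404 CPM in HepG2 and 12.9 and 46.9 CPM in its resistant lines, 141 CPM in HCC4006P1 and 26.2 CPM in HCC4006ER, but 85.3 CPM in IGROV-1 and more, 334 CPM, after cisplatin resistance. FADS3, a relative of FADS1 and FADS2, was higher by 2.22 in HCC4006ER, 1.94 in HCC827GR, 1.52 in HepG2S3, 1.45 in HCC4006GR, 1.22 in HepG2S1 and 1.21 in U10. In the remaining resistant lines its change ran from -0.19 in PancB1Q to 0.89 in U100. ELOVL7, an elongase, was 34.4 CPM in HepG2 and 1.42 and 1.02 CPM in its resistant lines.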

How the data were processed

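RNA of 17 cell lines was sequenced in 21 libraries. The authors prepared stranded KAPA libraries per the labels, while the study's methods name a KAPA or a Lexogen 3′ kit without saying which library had which. Whether the kit differed between compared libraries, those of the parental lines included, is therefore not known. Levels of different genes, and sums over marker genes, can depend on the kit as well. Reads were aligned to hg19 with Bowtie and TopHat (the methods also name STAR) and counted per gene with HTSeq, versions not given in the sources used here, and whether counting used strand is not stated. The deposited values are raw counts per gene. HTSeq's summary rows, 28.0% to 42.8% of each file, were left out of totals. Counts were divided by those on genes of known position outside the stretch without counts in HCC4006P1 replicate 1 to give CPM, and genes were placed with GENCODE on GRCh37, which positioned 84.3% of them.

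The members and lists were chosen with earlier results of these data known. All members are named, and of the other lipid genes the 4 with the largest mean absolute change. Pairs with 2 libraries on both sides, the 7 parents (resistant lines of a parent summed, parent as a block, HCC4006P1 replicate 1 left out) and the interaction were tested with edgeR 4.0.16 (R 4.3.3; TMM, filterByExpr, quasi-likelihood F test, two-sided, Benjamini-Hochberg, threshold 0.05). Other pairs were described by log2(CPM + 1), with a 2-fold limit over genes averaging at least 1 CPM. A count of 3 corresponds to 0.10 to 0.39 CPM. On simulated counts with 200 genes changed, edgeR recovered 181 in the HepG2S3 design (16532 genes), 192 in the HCC4006ER design (12582 genes), 107 in the design of 7 parents (18285 genes) and 169 in the interaction (13402 genes). Among recovered genes the median absolute log2 change was 2.04, 2.015, 2.125 and 2.061 in the same order. Recovery of smaller changes, as most members had, was not simulated. Alternatives were DESeq2 1.42.0, no filter, leaving out libraries, a replicate block, other denominators and a pseudocount of 0.1.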

Additional observations from a re-analysis of the deposited data

Results flagged for a closer look

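The following members were singled out because their change in HCC4006ER differed from their change in HepG2S3, by edgeR's interaction test with Benjamini-Hochberg adjustment. They are 13 of the 25 tested, 6 (24%) higher and 7 (28%) lower, against 27.7% and 28.2% of 14478 genes, shares close to the background. Values are the HCC4006ER log2 change minus the HepG2S3 log2 change. The sterol enzymes TM7SF2 (6.13, adjusted p = 3.3e-06), DHCR7 (0.95, adjusted p = 0.00709) and MSMO1 (0.86, adjusted p = 0.00632) had the higher change in HCC4006ER. DHCR7 and MSMO1 fell in both comparisons, and by less in HCC4006ER. PMVK (-1.97, adjusted p = 0.000228), IDI1 (-1.62, adjusted p = 0.000305) and FDPS (-1.40, adjusted p = 0.0323) had the lower. Among the regulators, the differences were 2.02 for INSIG2 (adjusted p = 7.9e-05), 1.09 for SCAP (adjusted p = 0.00564), 0.65 for SREBF2 (adjusted p = 0.0247) and -0.53 for SREBF1 (adjusted p = 0.0342). The fatty acid enzymes ELOVL6 (-2.07, adjusted p = 0.00028), FADS1 (-1.11, adjusted p = 0.0255) and ACLY (-0.67, adjusted p = 0.0344) had the lower change in HCC4006ER. The calls of FDPS, SREBF1, SREBF2, ACLY and FADS1 were lost when single libraries were left out.

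A further 3 members moved in opposite directions in every pairing of libraries, on the log2(CPM + 1) scale. The difference was -7.69 for INSIG1, 9.77 for ABCA1 and -2.38 for EBP. The difference was not tested for these genes, because HCC4006P1 replicate 1 held no counts for them.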

How the results depend on the processing

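Of the called members, 16 of 21 in HepG2S3, 15 of 21 in HCC4006ER and 8 of 13 in the interaction kept their call under every alternative run. Depth limits ABCG1, which had 3 to 18 counts a library in HepG2 and HepG2S3.

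As single libraries were left out, the members called in HepG2S3 ranged from 3 to 7 higher and 13 to 26 lower, in HCC4006ER from 0 to 2 and 16 to 21, and in the interaction from 5 to 10 and 3 to 10. Log2 changes that turned sign, none called with all libraries, ranged in HepG2S3 from -0.16 to 1.19 (FDPS), -0.57 to 0.28 (LSS), -0.13 to 0.062 (NSDHL), -0.14 to 0.51 (ELOVL6), -0.36 to 0.61 (FADS1) and -1.60 to 0.21 (FADS2). In HCC4006ER PMVK ranged from -0.32 to 0.10. In the interaction ACAT2 ranged from -0.21 to 1.28, HMGCS1 from -0.27 to 0.33, LSS from -0.60 to 0.23, SCD from -0.14 to 0.55 and FADS2 from -1.38 to 0.40.

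In the test over 7 parents, in which no member was called, signs turned as follows. Without a filter on low counts HMGCS1 was 0.053, MVK 0.033, NSDHL 0.026 and SCAP 0.050. Without HepG2 and its resistant lines HMGCS1 was 0.23, MVK 0.10, PMVK -0.28, SQLE 0.11 and SCAP 0.060. With HCC4006P1 replicate 1 NSDHL was 0.12 and SCAP 0.0088, with DESeq2 PMVK was -0.0082, and without HCC4006P2 and HCC4006GR SCAP was 0.058 and ABCA1 -0.32.

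With all genes as deposited, HCC4006ER had 0 members called higher. Of the 2-fold counts, TMM-scaled library sizes gave 4 lower in PancB1Q, 1 lower in HCC4006GR, 0 higher and 2 lower in HCC827GR and 1 higher in U100. The total count as denominator gave 1 lower in HCC4006GR and 0 higher in HCC827GR, and a pseudocount of 0.1 CPM gave 2 lower in U10. The cause was not tested.

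The replicate numbers are shared by 2 pairs of groups. Same-numbered libraries deviated with correlations of 0.02 (HepG2S3 and HepG2) and 0.26 (HCC4006ER and HCC4006P1), so with only 2 pairs the numbers were not taken as a pairing. With a replicate block, 3 members were higher and 17 lower in HepG2S3 (ACLY lost), and 2 higher and 21 lower in HCC4006ER (ACAT2 and LSS gained).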
